A study of Mus musculus with 62 samples.

Results

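Male mouse germ cells were followed across birth in 8 libraries, 2 at each of E17.5, E18.5, P0 and P1, which are 8 of the 62 libraries of the series and 8 of its 20 from germ cells taken in vivo. They were chosen by sample title alone, E17.5 and E18.5 (n = 4) standing before birth and P0 and P1 (n = 4) after it. Every library came from Ddx4-RFPTg/0 germ cells, labelled prospermatogonia at the fetal time points and spermatogonia at the newborn ones, with the strain given as ICR x B6C3(Cg)B6F1(5N). Per the labels' protocols, ICR mothers were mated with C57BL/6N males homozygous for the reporter, testes were dissociated with trypsin, and RFP-positive cells were collected by flow sorting, so the gate followed the Ddx4 (mvh) reporter of germ cells. Each library was amplified from 1 ng of total RNA, and only the 3′ end of a transcript was read. The labels do not say whether the 2 libraries of a time point came from separate animals, litters or sorts, so p-values measure the spread between these libraries, which may be technical. Equal RNA input also means that fewer cells of a type and less RNA per cell cannot be told apart.

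In the fetal mouse testis, male germ cells stop dividing and stay in G1 arrest as prospermatogonia while they lay down new DNA methylation, guided in part by piRNAs that point to transposons. Around birth they leave the arrest, move to the edge of the seminiferous cord and give rise to spermatogonia. The stem cells among these depend on GDNF from Sertoli cells, which binds the co-receptor Gfra1 and signals through the kinase Ret to genes such as Etv5, Bcl6b and Lhx1. The comparison asks how the transcriptome of the sorted cells differs on the 2 sides of birth, and each step between neighbouring time points shows when.

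Counted reads ranged from 1748872 to 5662007 per library, and the P1 libraries, with 1748872 and 2722252, were the smallest of the 8. Levels are CPM, that is, counts scaled to a common total of nuclear reads after TMM scaling, and "rose" and "fell" are kept for genes with an adjusted p below 0.05 (edgeR quasi-likelihood test, Benjamini-Hochberg) and a change of at least 2-fold. Spiked-in ERCC RNA took 5.11% to 6.89% of counted reads from E17.5 to P0 but 0.251% and 0.216% in the P1 libraries. P1 also stood apart in its genes: 170 genes lay below 0.5 times and 118 above 2 times the level of both neighbouring time points, against 1 to 9 and 1 to 16 at the other 7 time points with neighbours. Counts of list members are therefore given with P0 alone beside them. Ddx4, the vasa RNA helicase of germ cells, whose promoter drives the reporter, read 649.7 and 649.8 CPM at E17.5, 646 and 607 at E18.5, 635 and 618 at P0 and 580.2 and 585 at P1. The sides overlapped within a narrow band, and the fold change did not pass (log2 fold change -0.08, adjusted p = 0.624). Dazl, an RNA-binding protein of germ cells, was at 1011 to 1198 CPM before birth and 752 to 1345 after, with P0 the highest and P1 the lowest time point.

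Of 16008 genes tested, 1369 rose and 1980 fell after birth, or 20.9% in all, 8.55% higher and 12.4% lower. The balance moved with the scaling: higher calls were 40.9% of all calls here, 25.6% with DESeq2 size factors and 53.1% with library totals, and these scalings shifted the median log2 fold change by -0.171 and 0.126. With P0 alone against the fetal libraries 789 genes were higher and 878 lower (10.4% in all, as 4.93% and 5.48%), and with P1 alone 2150 and 2308 (27.8%, as 13.4% and 14.4%). All 4 libraries of the newborn side lay above all 4 fetal ones for 15.8% of genes and below them for 17%. The unadjusted p was below 0.05 for 8195 genes in the main comparison. With time points as the units, reads summed, 294 genes rose and 293 fell. Stepwise, E18.5 against E17.5 gave 249 higher and 120 lower genes (2.31%, as 1.56% and 0.75%), P0 against E18.5 gave 312 and 267 (3.62%, as 1.95% and 1.67%), and P1 against P0 gave 824 and 799 (10.1%, as 5.15% and 4.99%). Here the step that holds birth had more calls than the fetal step before it and fewer than the step from P0 to P1. With library totals the fetal step had 583 higher and 46 lower genes and birth itself 335 and 235. The order of the fetal step and the step of birth thus depended on the scaling. The differences between these counts were not tested. Leaving out any 1 of the 4 libraries of a step left 98 to 113 higher and 63 to 93 lower genes in the fetal step, 149 to 199 and 76 to 85 at birth, and 426 to 702 and 451 to 746 from P0 to P1.

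**Figure D1:**
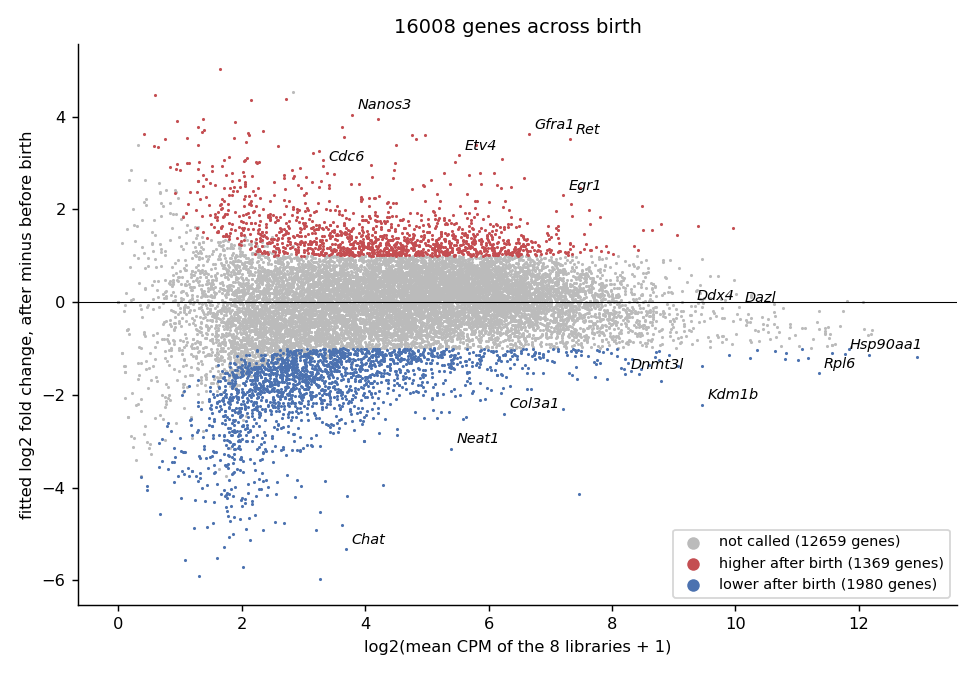
Fitted log2 fold change, after minus before birth, of 16008 genes (vertical axis) against their mean level as log2(CPM + 1) over the 8 libraries (horizontal axis). Red points are the 1369 genes that rose and blue points the 1980 that fell; Gfra1, Ret and Nanos3 lie near the top, Kdm1b and Rpl6 fell from high levels, and Ddx4 and Dazl lie near 0.

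The receptor pair for GDNF rose early and far. Gfra1 (chr19:58235581-58455946, GRCm38.p6), the GDNF co-receptor, read 10.7 and 7.65 CPM at E17.5, 20.9 and 15.6 at E18.5, 100.2 and 82.2 at P0 and 275 and 285 at P1. All 4 newborn libraries lay above all 4 fetal ones, P1 above P0, and the rise was large (log2 fold change 3.62, SE 0.16, adjusted p = 4.96e-26). Ret (chr6:118151748-118197744), the signalling kinase of the pair, read 19.5 and 12.6 CPM at E17.5, 31.6 and 31.8 at E18.5, 156 and 148 at P0 and 416 and 461 at P1. Its groups did not overlap either (log2 fold change 3.51, SE 0.15, adjusted p = 1.21e-26), and the step from E18.5 to P0 alone gave log2 fold changes of 2.32 for Gfra1 and 2.26 for Ret, both called. Both also rose from P0 to P1, by 1.62 and 1.53.

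In a GDNF and FGF response list, which counts Gfra1 itself, 19 of 31 tested genes rose and none fell. That share is to be read against 8.55% of all genes. The list's median log2 fold change was 1.25 against -0.022 for all genes. With P0 alone 16 were higher and 1 lower, against 4.93% and 5.48% of all genes. With time points as units 12 were higher, where 294 of all genes rose. Lhx1, a homeobox factor induced by GDNF in cultured stem spermatogonia, went from 4.69 ± 3.21 to 56.1 ± 35.1 CPM (mean ± SD, n = 4 each). Etv5, an ETS factor needed for stem cell upkeep, went from 14.2 ± 4.58 to 99.3 ± 28.1 CPM (log2 fold change 2.80). Its relative Etv4 read 5.85 and 2.33 CPM at E17.5, 4.35 and 8.89 at E18.5, 14.8 and 14.7 at P0 and 161 and 147 at P1. The P0 libraries lay just above the fetal ones and the P1 libraries far above P0 (log2 fold change 3.37, SE 0.28, adjusted p = 2.26e-13 for P1 against P0). Etv4 was among the 76 of 150 named results across birth that no longer passed with time points as units. The feedback inhibitors of the same pathway were split: Spry4 rose (log2 fold change 3.78), as did Il17rd (1.25) and Dusp4 (1.11), while Spry1, Spry2, Spred2 and Dusp6 did not pass, with 0.41, -0.45, -0.099 and 0.63. Of the FGF receptors Fgfr1, Fgfr2 and Fgfr3 none passed (0.15, 0.55 and -0.059).

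Genes of undifferentiated spermatogonia followed (median log2 fold change 1.01). Of 35 tested members 18 were higher and 1 lower, against 8.55% and 12.4% of all genes. This list shares 10 tested genes with the response list, 8 of them higher, so the counts overlap. With P0 alone 15 members were higher and 2 lower, against 4.93% and 5.48% of all genes. With time points as units 12 were higher and 1 lower. Nanos3 (chr8:84173733-84176552), an RNA-binding factor of early germ cells, read 2.28 and 1.66 CPM at E17.5, 1.16 and 0.494 at E18.5, 14.8 and 12 at P0 and 36.8 and 33.3 at P1. It was near the limit of detection in the fetal libraries and clear of it in every newborn one (log2 fold change 4.05, SE 0.38, adjusted p = 5.85e-13). Foxc2, a forkhead factor of quiescent stem cells, read 0.325 and 2.66 CPM at E17.5, 11.9 and 6.67 at E18.5, 20.4 and 28.9 at P0 and 78.8 and 67.8 at P1. It rose at each of the 3 steps, by 2.59, 1.44 and 1.55 on the log2 scale. Nanos2, which keeps stem spermatogonia undifferentiated, stayed low, at 1 read in the 4 fetal libraries and 1.15 to 7.0 CPM in the newborn ones. Id4, an inhibitor of differentiation, went from 29.7 ± 17.7 to 123 ± 42.9 CPM, Zbtb16 (PLZF), a repressor of stem cell differentiation, from 8.1 ± 2.34 to 35.3 ± 9.06 CPM, and Glis3, a zinc finger factor, from 16.6 ± 8.67 to 131 ± 23.5 CPM. The 1 member that fell was Utf1, a chromatin factor shared with embryonic stem cells (158 ± 78.6 to 50.1 ± 5.78 CPM, log2 fold change -1.52). Members at a high level that did not pass included Sall4 (0.32), Foxo1 (-0.47) and Taf4b (-0.49).

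**Figure D2:**
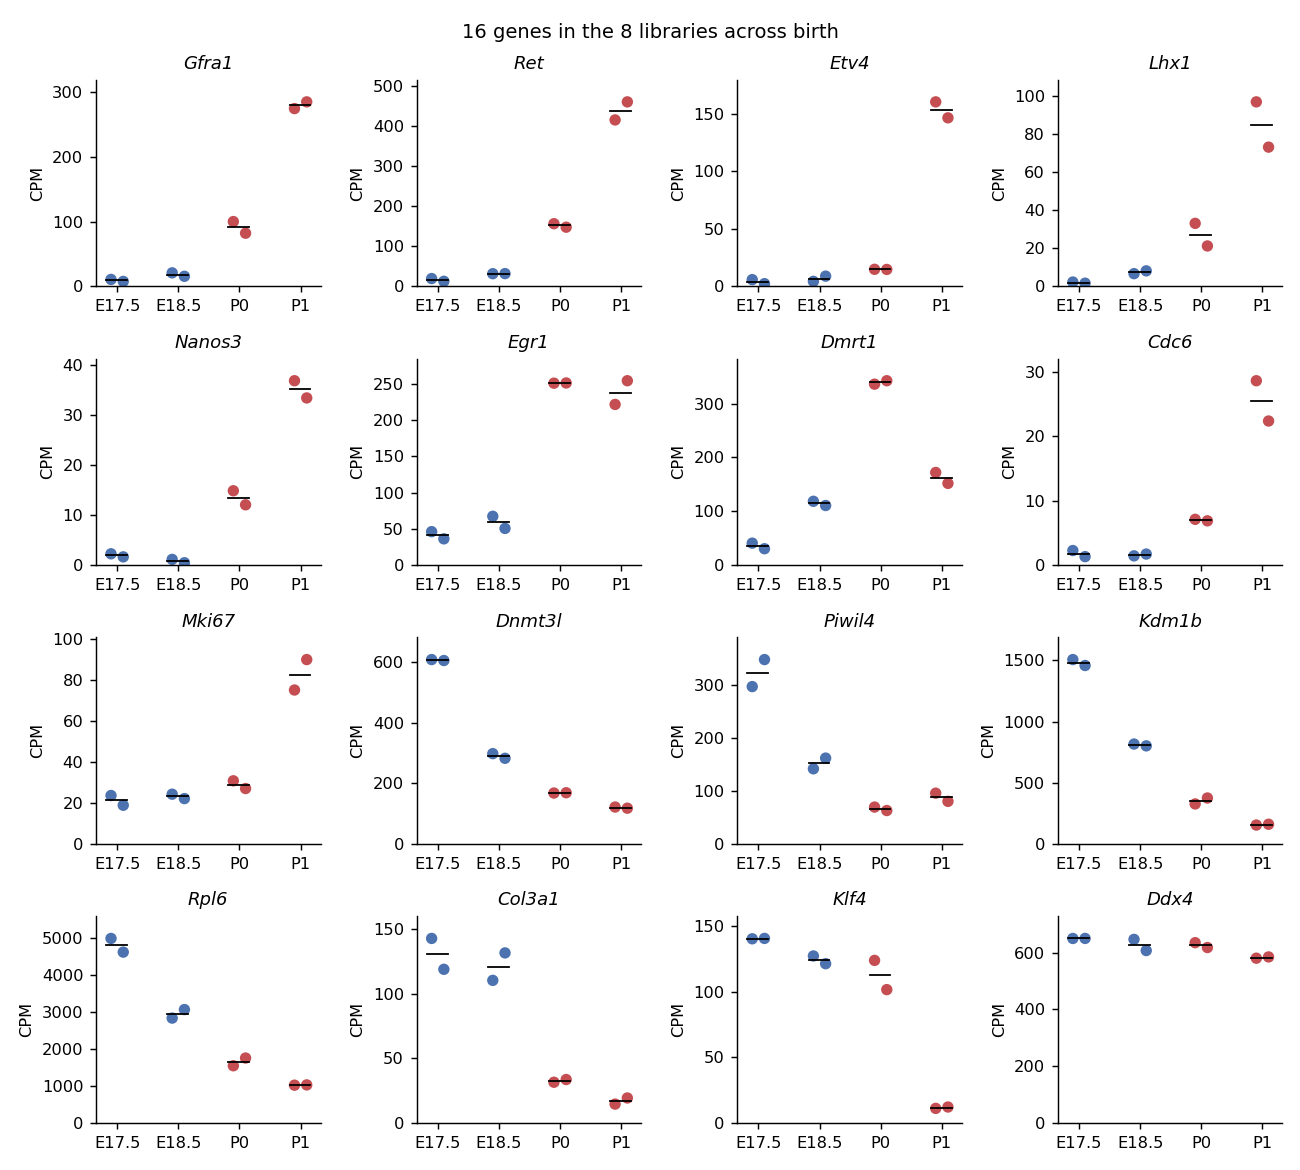
CPM (vertical axis of each panel, from 0) of 16 genes in the 8 libraries, with 2 points per time point, blue before and red after birth, and a bar at the mean of each pair. Gfra1 and Ret climb at P0 and again at P1, Dnmt3l, Kdm1b and Rpl6 step down from E17.5 on, Klf4 is low at P1 alone, and Ddx4 stays between 580.2 and 649.8 CPM.

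Genes of differentiation moved unevenly. Of 24 tested members of a differentiation and retinoic acid list 5 rose and 3 fell, with 5 higher and 1 lower by P0 alone. Over all genes 8.55% rose and 12.4% fell, and with P0 alone 4.93% were higher and 5.48% lower. Dmrt1, a doublesex-family factor that restrains meiosis, read 41 and 30.6 CPM at E17.5, 119 and 111 at E18.5, 336 and 343 at P0 and 172 and 152 at P1. It rose to P0 and then fell to P1 (log2 fold change -1.07, adjusted p = 6.12e-07). At P3, outside the comparison, Dmrt1 was at 374 CPM, so P1 lay below both neighbouring time points. Sohlh2, a helix-loop-helix factor of differentiating spermatogonia, went from 13.8 ± 5.66 to 44.2 ± 9.88 CPM, and Stra8, a retinoic acid target, from 4.65 ± 2.05 to 23.7 ± 11.8 CPM (log2 fold changes 1.77 and 2.22). Kit, the receptor that marks differentiating spermatogonia, did not pass (log2 fold change -0.48, adjusted p = 0.0254), with both P1 libraries, at 28.02 and 34.1 CPM, below the 6 others at 53.7 to 70.1. At P3 Kit was at 93.2 CPM. Aldh1a1, a retinoic acid synthesis enzyme that Sertoli cells also express, fell from 35.1 ± 3.64 to 8.14 ± 4.57 CPM.

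Immediate early genes, which answer growth factor signals within minutes, parted in both directions: 9 of 27 rose and 7 fell, against 8.55% and 12.4% of all genes (medians 0.59 for the list, -0.022 for all genes). With P0 alone 7 were higher and 3 lower, against 4.93% and 5.48% of all genes. With P1 alone the counts were 10 and 5, against 13.4% and 14.4% of all genes. With time points as units 4 were higher and none lower, where 294 of all genes rose and 293 fell. This list shares 5 tested genes with the GDNF and FGF response list, 4 of them higher. Egr2, a zinc finger factor, read 6.18 and 5.66 CPM at E17.5, 13.9 and 14.1 at E18.5, 64 and 63.1 at P0 and 90.5 and 85.2 at P1. The newborn libraries all exceeded the fetal ones, and the change sat at the step from E18.5 to P0 (log2 fold change 2.18, SE 0.31, adjusted p = 3.77e-06). Egr1 and Egr3, of the same family, went from 50.1 ± 13 to 244 ± 15.3 CPM and from 5.02 ± 4.23 to 38.4 ± 7.72 CPM. Ier3 and Btg2, both growth factor-induced, also rose (3.22 and 1.23), Btg2 not being called with P0 alone (0.68). On the other side Klf2, Klf4, Klf6, Jun, Jund, Ccn1 and Myc fell. Klf4 read 140.5 and 141 CPM at E17.5, 127 and 121 at E18.5, 124 and 102 at P0 and 11.1 and 12.1 at P1. Only the P1 libraries were low, and P0 alone gave -0.23, which was not called, as were -0.75 for Klf2 and -0.89 for Ccn1. The Myc libraries of P0 read 0.928 and 8.79 CPM, a pair far apart, and Myc was not called with P0 alone (-1.01) or without any 1 of the 8 libraries except P0 replicate 2. Dissociation is known to induce some immediate early genes, and its part here was not tested.

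Some cell cycle genes rose. The counts of genes that rose are to be read against 8.55% of all genes. Those with P0 alone and with P1 alone are to be read against 4.93% and 13.4% of all genes higher. A list of D and E cyclins also held the transcription factors Myc and Mycn. Of its 14 tested genes 5 rose, Mycn among them (1.45), and 1, Myc, fell, with 5 higher and none lower by P0 alone. With time points as units 1 was higher and none lower. Ccnd2, a D cyclin of spermatogonia, read 41.3 and 39.9 CPM at E17.5, 106 and 105 at E18.5, 217 and 246 at P0 and 175 and 185 at P1. It already rose from E17.5 to E18.5 (log2 fold change 1.37), as Ccnd1 did (1.64). In a list of DNA replication genes 11 of 43 rose and none fell (median 0.62). The number was 6 with P0 alone, 22 with P1 alone, 4 when P1 was left out of the fit and 4 with time points as units. Cdc6 (chr11:98907709-98923942), which loads the MCM helicase onto origins, read 2.28 and 1.33 CPM at E17.5, 1.45 and 1.73 at E18.5, 7.11 and 6.88 at P0 and 28.6 and 22.4 at P1. Its groups did not overlap, and both birth itself and the first day added to it (2.09 and 1.85). Chaf1b, a histone chaperone subunit of the replication fork, and Uhrf1, which directs Dnmt1 to newly copied DNA, went up at P0 already, by 2.43 and 2.06, and stood at 48.1 and 47.9 CPM at P1. Rrm2, the ribonucleotide reductase subunit, went from 5.03 ± 2.07 to 23.3 ± 9.05 CPM. The MCM genes were mixed, Mcm5 rising (1.26, not called with P0 alone) while Mcm3, Mcm4, Mcm6 and Mcm7 did not pass (0.51, 0.29, 0.036 and 0.38).

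Promoters of these genes were searched in RefSeq windows (GRCm38.p6, 250 bases before to 50 after a start), on both strands, for the E2F letters TTTCCCGC or TTTGGCGC, and 3 of 10 replication genes that rose and had a window held a match, against 8 of 24 that did not rise and 1.80% of 27025 genes. The share was thus no higher among those that rose. The 3 are shown because E2F factors are the known regulators of S phase genes. The match is in capitals, and in each of the 3 its letters read on the other strand. The stretches are Cdc6 at chr11:98907901-98908200, Mcm5 at chr8:75109334-75109393 and Gins3 at chr8:95633492-95633551, all on the plus strand. Mcm5 and Gins3 were not called with P0 alone.
Cdc6: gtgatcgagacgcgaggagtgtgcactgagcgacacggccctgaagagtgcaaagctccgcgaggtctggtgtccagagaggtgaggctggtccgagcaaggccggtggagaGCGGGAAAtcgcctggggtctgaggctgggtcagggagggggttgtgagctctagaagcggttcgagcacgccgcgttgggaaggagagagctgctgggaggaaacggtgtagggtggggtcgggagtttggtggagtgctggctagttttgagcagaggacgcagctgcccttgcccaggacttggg
Mcm5: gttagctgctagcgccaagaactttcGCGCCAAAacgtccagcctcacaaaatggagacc
Gins3: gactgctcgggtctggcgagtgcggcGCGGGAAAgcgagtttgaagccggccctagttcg

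Of 35 tested mitosis genes 7 rose and none fell (median 0.33), with 2 higher by P0 alone, 14 by P1 alone, 2 when P1 was left out and 3 without P1 replicate 2. With time points as units 2 were higher. Over all genes 8.55% rose, and 4.93% were higher with P0 alone and 13.4% with P1 alone. Mki67, a marker of cycling cells, read 23.7 and 19 CPM at E17.5, 24.4 and 22.2 at E18.5, 30.9 and 27.1 at P0 and 75.3 and 90.2 at P1. The P1 pair stood apart and P0 lay just above the fetal range (log2 fold change 1.52, SE 0.28, adjusted p = 0.00013 for P1 against P0). With P0 alone its log2 fold change was 0.37 and not called, and without P1 replicate 2 the value across birth was 0.98 and not called. Birc5 (survivin) and Spc24, a kinetochore subunit, went from 5.54 ± 2.35 to 25.7 ± 13.7 CPM and from 2.71 ± 0.847 to 22.5 ± 18.7 CPM. Cenpa, the centromeric histone, went from 51.3 ± 10.6 to 117 ± 35 CPM, and without P0 replicate 1 its log2 fold change was 0.99 and not called, as was the 0.77 with P0 alone. Top2a, Cdc20, Ccnb2 and Ube2c did not pass (-0.071, -0.085, 0.028 and 0.068). The cell cycle homology region, with the letters TTTGAA and known from late cell cycle genes, was in the window of 4 of 5 mitosis genes that rose and had one, in 17 of 23 that did not rise, and in 20.2% of all genes. The 4 stretches are Mki67 at chr7:135716463-135716522 and Spc25 at chr2:69206164-69206223 on the minus strand, and Plk1 at chr7:122159425-122159484 and Cenpa at chr5:30666875-30666934 on the plus strand, with the match in capitals, and none of the 4 was called with P0 alone.
Mki67: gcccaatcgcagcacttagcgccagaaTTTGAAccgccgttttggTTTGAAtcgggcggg
Plk1: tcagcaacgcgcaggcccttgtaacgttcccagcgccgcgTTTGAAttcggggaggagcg
Cenpa: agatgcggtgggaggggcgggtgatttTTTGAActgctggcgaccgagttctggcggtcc
Spc25: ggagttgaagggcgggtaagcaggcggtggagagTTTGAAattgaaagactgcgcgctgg

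The CArG box, the binding motif of serum response factor, was in the window of 2 of 6 immediate early genes that rose, of none of 16 that did not, and of 1.81% of all genes. Of these, Egr2 is shown at chr10:67537469-67537528 on the plus strand, with the box in capitals. A gene can have several windows, and this stretch lies inside Egr2 (chr10:67534469-67542188), not at its outermost start. The Cdc6 stretch above also begins inside its gene.
Egr2: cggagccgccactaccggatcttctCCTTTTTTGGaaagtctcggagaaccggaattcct

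Among the brakes of the cycle 3 of 18 rose and 2 fell, with 1 higher and none lower by P0 alone. Over all genes 8.55% rose and 12.4% fell, and with P0 alone 4.93% were higher and 5.48% lower. Cdkn1a, the p21 inhibitor of cyclin-dependent kinases, read 3.9 and 2 CPM at E17.5, 7.54 and 8.15 at E18.5, 22 and 17.8 at P0 and 29.8 and 23.9 at P1. The rise (log2 fold change 2.23, SE 0.29, adjusted p = 5.47e-09) went with no overlap between the sides. Cdkn1b, the p27 inhibitor tied to G1 arrest, read 18.54 and 11 CPM at E17.5, 13.3 and 12.8 at E18.5, 6.8 and 8.98 at P0 and 3.5 and 3.41 at P1. It fell (log2 fold change -1.40, SE 0.50, adjusted p = 0.0198), but at P0 alone it was not called (-0.80), and without E17.5 replicate 1 (-1.18) or P1 replicate 2 the call across birth ended. Of 17 p53 target genes, 4 rose, among them Pmaip1 (Noxa), a cell death gene (28 ± 17.7 to 134 ± 27.4 CPM), and Bax (1.17), and 2 fell, Fas and Perp (-2.08 and -1.14). With P0 alone 4 were higher and 1 lower, and Bax (0.44) and Perp (-0.52) were not called.

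Some genes of fetal DNA methylation fell, in part before birth. In the de novo methylation list 4 of 17 fell (against 12.4% of all genes) and 1, Uhrf1, rose, with a median near 0 (0.0011) whose sign changes with the scaling. With P0 alone 3 were lower and 2 higher, against 5.48% and 4.93% of all genes. Kdm1b (chr13:47043373-47085279), a histone H3K4 demethylase, read 1507 and 1459 CPM at E17.5, 817 and 802 at E18.5, 328 and 376 at P0 and 155 and 162 at P1. Each time point lay below the one before it (log2 fold change -2.21, SE 0.17, adjusted p = 1.02e-13). Dnmt3l, the cofactor of de novo methyltransferases, read 608 and 605 CPM at E17.5, 298 and 283 at E18.5, 168 and 169 at P0 and 122 and 118 at P1. It fell across birth (log2 fold change -1.56, SE 0.24, adjusted p = 2.8e-06), and of its steps the one from E17.5 to E18.5 was called (-1.06) and the one from E18.5 to P0 was not (-0.78). Spocd1, which brings that methylation to transposons, went from 374 ± 164 to 109.6 ± 5.98 CPM. The enzymes themselves were less moved: Dnmt3a stood at 461 ± 92.3 to 249.8 ± 84.6 CPM and did not pass (log2 fold change -0.93), and Dnmt3b and Dnmt1 did not either (0.14 and 0.31). In the piRNA list 3 of 25 fell (5 without P0 replicate 2) and 1, Nanos2, rose, shares close to or below the 12.4% and 8.55% of all genes, and with P0 alone 2 were lower and 1 higher. Piwil4 (MIWI2), the nuclear Piwi protein, read 296 and 347 CPM at E17.5, 142 and 162 at E18.5, 69.6 and 63.1 at P0 and 95.7 and 80.3 at P1. Its newborn libraries lay below all fetal ones (log2 fold change -1.54, SE 0.15, adjusted p = 9.02e-13). Piwil2, the cytoplasmic Piwi protein, did not pass (-0.40), nor did the tudor genes Tdrd1 (-0.26) and Tdrd9 (-0.82).

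Of 25 genes shared with pluripotent cells 7 fell and none rose (median -0.46), but with P0 alone 2 were lower and 3 higher. Over all genes 12.4% fell and 8.55% rose, and with P0 alone 5.48% were lower and 4.93% higher. Dppa3 (Stella), a factor of primordial germ cells, read 31.2 and 45.3 CPM at E17.5, 44.7 and 50.9 at E18.5, 11.4 and 17.2 at P0 and 10.5 and 7.58 at P1. It fell at the step of birth (-1.70). Nanog was low throughout, from 7.9 ± 3.06 to 2.63 ± 1.49 CPM, and was not called with P0 alone, and Pou5f1 (Oct4) did not pass (-0.45). Of 33 meiotic prophase genes 4 rose and 3 fell, near the 8.55% and 12.4% of all genes, and with P0 alone 3 were higher and 1 lower. Syce2, a synaptonemal complex protein, went from 61.2 ± 21.6 to 187 ± 50.1 CPM, and Rec8, the meiotic cohesin, fell (-1.14, not called with P0 alone). Sycp1, Sycp3 and Dmc1 did not pass (0.35, 0.20 and 0.75). In the germ cell core list 4 of 25 rose (Nanos2, Nanos3, Tcl1 and Taf7l) and 2 fell (Brdt and Rnf17, the latter not without E17.5 replicate 1 or E18.5 replicate 1), and neither fall was called with P0 alone (-0.83 and -0.61).

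**Figure D3:**
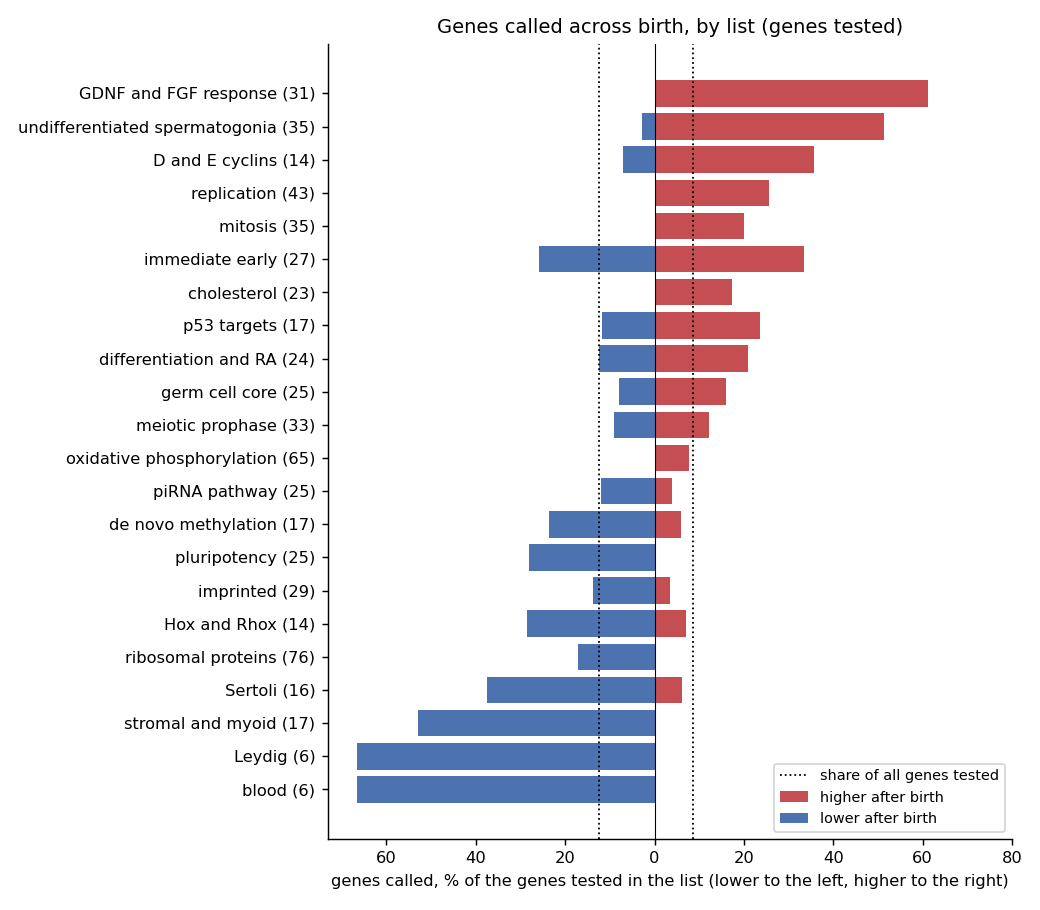
Share of the tested genes of 22 lists that rose (red, to the right) or fell (blue, to the left) after birth, in %, with the number of tested genes in brackets and dotted lines at 8.55% and 12.4%, the shares of all genes. The GDNF and FGF response and undifferentiated lists reach furthest to the right, and the blood, Leydig and stromal lists furthest to the left.

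The summed level of ribosomal protein genes was lower in every newborn library. Of 76 tested, 13 fell, against 12.4% of all genes, and none rose (median -0.60), with 9 lower by P0 alone, 21 without P0 replicate 1, 20 without P1 replicate 1 and 2 with time points as units; 47 had no overlap between the sides in the lower direction against 17% of all genes, and their summed level read 208320 and 210910 CPM at E17.5, 145580 and 147900 at E18.5, 115660 and 109370 at P0 and 115600 and 112990 at P1. The larger step was thus fetal, and the P0 and P1 ranges overlapped. An exact 2-sided permutation test of 4 libraries against 4 gave p = 0.0286, the smallest that 70 splits allow, and 0.05 after adjustment over 14 library measures. That test takes the 8 libraries as separate units, though 2 share each time point. Rpl6 read 4989.7 and 4619 CPM at E17.5, 2835 and 3065 at E18.5, 1546 and 1755 at P0 and 1020.3 and 1028 at P1 (log2 fold change -1.53, SE 0.12, adjusted p = 1.15e-16). The median stayed below 0 under each scaling tried, from -0.77 to -0.47. Over all genes 5.48% were lower with P0 alone, and 293 fell with time points as units. Ribosomal genes have many near-identical processed copies, among which the counting could split reads. The 10 most abundant genes took 6.82% and 6.81% of reads at E17.5 and 3.98% and 3.88% at P1. Hsp90aa1, an abundant heat shock protein, went from 4788 ± 1195 to 2193 ± 570.2 CPM (log2 fold change -1.13, and -0.81 with P0 alone, not called), within a heat shock list of which 3 of 14 fell, 2 with P0 alone, and none rose.

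In most metabolic lists few genes passed the test. Over all genes 8.55% rose and 12.4% fell, and 4.93% were higher with P0 alone and 13.4% with P1 alone. Of 23 cholesterol genes 4 rose and none fell (median 0.68), among them the synthesis enzymes Lss, Cyp51 and Mvd, with log2 fold changes of 1.99, 1.44 and 1.15. With P0 alone 5 were higher, and Mvd was not called (0.62). Of 65 nuclear oxidative phosphorylation genes 5 rose, 1 with P0 alone, 15 with P1 alone and 3 without P0 replicate 1 or P1 replicate 1, and their summed level went from 12974 and 14400 CPM at P0 to 20828 and 21570 at P1, with E17.5 at 18581 and 19256. The list's median, 0.17, turned to -0.0042 with DESeq2 size factors and to -0.36 without P1. In glycolysis 1 of 19 rose (Ldhb, 41.2 ± 13.3 to 131 ± 57.3 CPM) and 1 fell, Eno2 (-1.54). Fatty acid oxidation had 1 of 21 lower, Ppara, its nuclear receptor (-1.36, and -0.60 with P0 alone, not called). Asns, the asparagine synthetase, fell from 318 ± 94.8 to 102 ± 20.6 CPM, and Gpx1, a glutathione peroxidase, went from 51.1 ± 8.71 to 305 ± 143 CPM. Of 22 hypoxia targets 4 rose, 3 with P0 alone, with Egln1, an oxygen-sensing hydroxylase, going from 29.2 ± 9.13 to 86.1 ± 16.3 CPM.

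Most marker lists of the other cells of the testis had lower sums after birth in these sorted samples. Over all genes 8.55% rose and 12.4% fell, and with P0 alone 4.93% were higher and 5.48% lower. Of 17 stromal and myoid markers 9 fell, 5 with P0 alone, and none rose, and their summed level was 587 to 739 CPM before birth and 300.02 to 382 after. Col3a1, a fibrillar collagen, read 143 and 119 CPM at E17.5, 111 and 132 at E18.5, 31.5 and 33.6 at P0 and 14.6 and 19.3 at P1. Of 6 Leydig markers 4 fell, 2 with P0 alone (45.2 to 92.3 CPM summed before, 12.8 to 21.8 after), of 16 Sertoli markers 6 fell (3 with P0 alone, and 3 without E17.5 replicate 1) and 1 rose (632 to 699 and 441 to 567), and of 10 endothelial markers 3 fell, 2 with P0 alone (218 to 243 and 168 to 204). Blood genes read 91.7 to 323 and 35.2 to 85.6 CPM, where Hbb-bs and Hbb-bt, and Hba-a1 and Hba-a2, are near-identical copies. Macrophage markers overlapped, at 43.2 to 62.9 and 46.1 to 101 CPM (exact permutation p = 0.2). The germ cell core sum overlapped too, at 5940 to 7447 and 4768 to 6243 CPM. Its mean was also lower after birth, at 6713 and 5513 CPM (exact permutation p = 0.114). The Sertoli, Leydig, stromal, endothelial and blood sums did not overlap between the sides (exact permutation p = 0.0286 each, 0.05 adjusted). These p-values too take the 8 libraries as separate units, though 2 share each time point. In the gene test with time points as units 5 stromal and 2 Leydig markers were lower, but no Sertoli or endothelial marker. None of these lists had a tested marker without a read on either side. The Leydig steroid enzyme Cyp17a1 read 0 in both P1 libraries and 0.928 and 1.15 CPM at P0, against 2.96 to 30.6 before birth. The part of these cells in the falls named next was not tested.

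**Figure D4:**
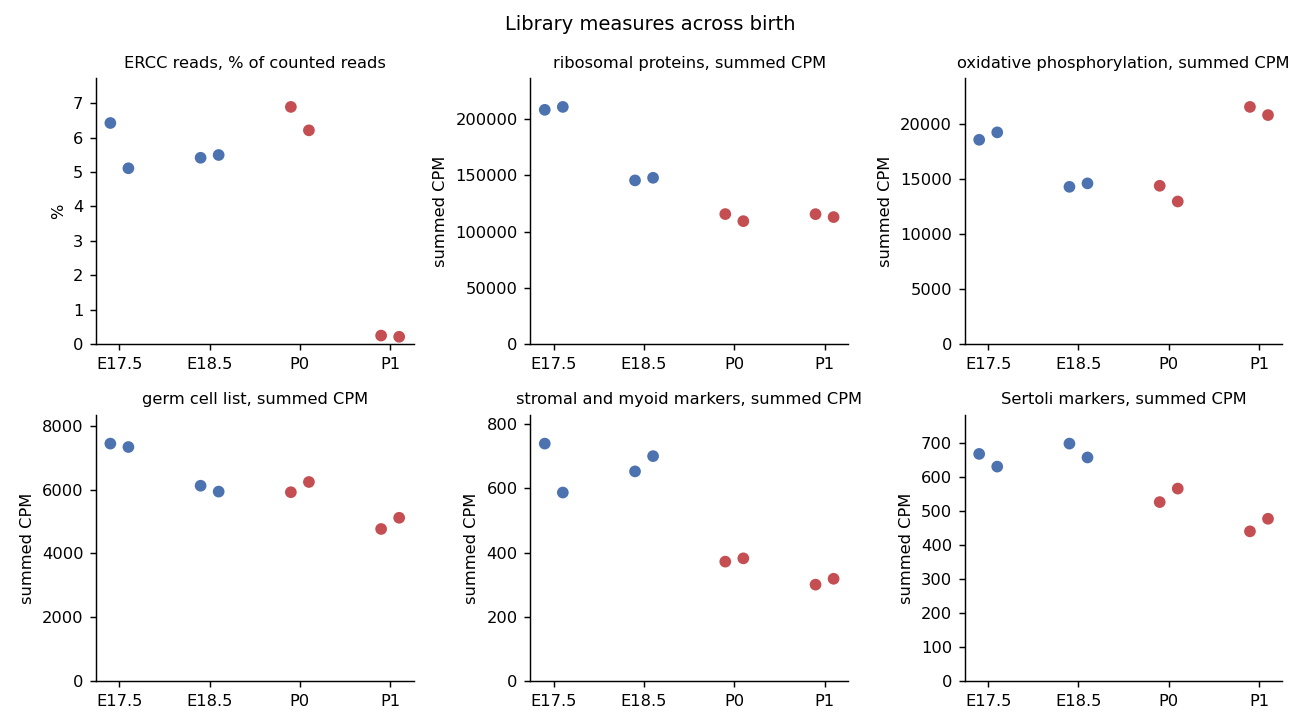
ERCC share of counted reads (%) and summed CPM of 5 gene lists (vertical axes, from 0) in the 8 libraries, blue before and red after birth. The ERCC share is 0.251% or less at P1 and at least 5.11% elsewhere, ribosomal protein and stromal sums are lower in all 4 newborn libraries, and the oxidative phosphorylation sum is highest at P1.

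The 12 genes that fell furthest, by the rule of at least 20 CPM on the higher side and no overlap, were Chat, Neat1, Zfp536, Foxf2, Lrrc23, Chl1, Sim1, Sox9, Cyp2f2, Pnma2, Otc and Hoxc8. Neat1 (chr19:5824708-5845480), the long noncoding RNA of nuclear paraspeckles, read 97.5 and 96.8 CPM at E17.5, 48.2 and 52.8 at E18.5, 11.4 and 9.37 at P0 and 3.5 and 7.58 at P1. It fell at birth itself (log2 fold change -2.29, SE 0.35, adjusted p = 5.19e-06), as did Lrrc23 (-2.22), Cyp2f2 (-2.08) and Hoxc8 (-1.89). Sox9, the Sertoli cell transcription factor, read 30.9 and 33.6 CPM at E17.5, 38.6 and 33.1 at E18.5, 15.46 and 20.6 at P0 and 1.17 and 1.52 at P1. Foxf2, a forkhead factor, and Zfp536, a zinc finger gene, shared its course, with P1 alone near 0, and all 3 lost their call without P1 (-0.90, -1.34 and -0.56 with P0 alone). Chat, choline acetyltransferase, had no read in either P1 library and 5.57 and 5.93 CPM at P0, against 17.1 to 23.2 before birth, so its fitted fold change is no measured ratio. Of 14 tested Hox and Rhox genes 4 fell, among them Hoxb2 (-2.27) and Hoxa3 (-2.05), against 12.4% of all genes. In the other direction 1 rose, Rhox2a, which has near-identical relatives, against 8.55% of all genes. With P0 alone 1 was lower and none higher, against 5.48% and 4.93% of all genes, and Hoxa3 (-0.94) and Rhox2a (0.62) were not called.

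The 12 genes that rose furthest by the same rule were Nanos3, Spry4, Gfra1, Lhx1, Ret, Foxc2, Egr3, Etv4, Timp1, Mmp9, Kcnj15 and Ddx19a. Timp1, an inhibitor of matrix proteases, read 1.3 and 2 CPM at E17.5, 2.03 and 1.23 at E18.5, 13.9 and 10.9 at P0 and 57.8 and 51.1 at P1, and Mmp9, a protease of that kind, read 7.48 and 6.32 CPM at E17.5, 8.99 and 9.38 at E18.5, 52.3 and 37.1 at P0 and 154 and 161 at P1. Both rose at P0 and again at P1. Ddx19a, an RNA helicase gene, went from 1.73 ± 0.769 to 21.6 ± 7.54 CPM. At P3, in libraries outside the comparison, Timp1 and Mmp9 were at 16.6 and 55.5 CPM. Kcnj15, a potassium channel subunit, had the same course, with 25.2 CPM at P0, 72.2 at P1 and 27 at P3. The surface proteoglycan Sdc4, by contrast, rose at birth (1.55) and stood at 115 CPM at P0 and 123 at P1.

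Before birth, from E17.5 to E18.5, Otx2, a homeobox factor, had the highest rise by the rule and read 6.18 and 3.33 CPM at E17.5, 28.1 and 37.3 at E18.5, 25.7 and 22 at P0 and 2.33 and 3.03 at P1. Its P1 libraries lay below those of E17.5, and the call ended without E17.5 replicate 2 or E18.5 replicate 2. Nell1, Hebp2 and Ostm1 also rose at that step (2.07, 1.97 and 1.86), and Smco2, Tpp1, a lysosomal peptidase, Vwf, the clotting factor of endothelium, and Dmkn fell (-2.55, -1.87, -1.71 and -1.68). Of these calls, that of Nell1 ended without any 1 of the 4 libraries, that of Dmkn without any 1 but E17.5 replicate 1, that of Hebp2 without E17.5 replicate 2 and that of Ostm1 without E17.5 replicate 1. Tpp1 read 81 and 90.5 CPM at E17.5, 21.5 and 25.2 at E18.5, 13.6 and 9.17 at P0 and 16.9 and 14.4 at P1. At birth itself, from E18.5 to P0, Hs3st1, a heparan sulfate sulfotransferase, Asb9 and Ern1, the sensor kinase of unfolded proteins, rose beside Kcnj15 and Chaf1b (2.86, 2.46 and 2.43). Hs3st1 then fell from P0, at 26 and 27.5 CPM, to P1, at 10.5 and 7.58 (-1.58). With P1 alone against the fetal libraries it was not called (0.70). Asb9 read 15 and 9.65 CPM at E17.5, 12.5 and 9.88 at E18.5, 62.5 and 60.2 at P0 and 79.4 and 73.5 at P1. Trim5, Ptgds, a prostaglandin synthase, and Gucy2c fell at that step (-4.36, -2.46 and -2.09). Trim5 had risen from E17.5 to E18.5 (1.84). It read 9.1 and 5.32 CPM at E17.5, 24.4 and 27.4 at E18.5, 1.86 and 0.765 at P0 and 0.584 and 0 at P1. The calls of Gucy2c and Lrrc23 ended without P0 replicate 1, and that of Ern1 without E18.5 replicate 2.

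From P0 to P1 the genes that moved furthest were often those in which P1 left the course of its neighbours. Klf4 was at 113 CPM at P0, 11.6 at P1 and 56.4 at P3, and Kcnq1ot1, an imprinted long noncoding RNA, at 33.5, 2.41 and 35.7. Kdm1a, a histone demethylase, read 341, 77 and 239.8 CPM. Dpysl2, BC005561 and Zbtb20 fell too (-4.12, -4.18 and -3.34), none of which was called with P0 alone against the fetal libraries, while N4bp3 and the imprinted RNA H19 rose (2.81 and 2.79). The H19 call ended without any 1 of the 4 libraries, and those of BC005561 and Kcnq1ot1 without P1 replicate 2. Eif4a3l1, a copy of an exon junction helicase gene, read 0.325 and 0.333 CPM at E17.5, 19.15 and 17.8 at E18.5, 0.309 and 0 at P0 and 21.6 and 29.9 at P1. It was present in both libraries of E18.5 and P1 and near 0 in both of E17.5 and P0, so the 2 libraries of a time point shared a state that neighbouring time points did not. Abcc10 alternated in the same order, at 5.43, 22.4, 5.54 and 36.3 CPM. The lower ERCC share and depth of P1 move with these changes, and their part was not tested; with the 8 libraries thinned to 1477201 reads each, in a fit of those 8 chosen after the data had been seen, 998 genes rose and 1166 fell from P0 to P1, against 1069 and 1356 in the same fit without thinning.

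At the median, genes called across birth lay on the same side of the fetal level in later libraries that the comparison did not use. The 1369 that rose had a median difference in log2(CPM + 1) from the fetal mean of 0.96 at P0, 1.54 at P1, 1.45 at P3 and 1.17 at P7, and the 1980 that fell had -1.03, -1.68, -2.33 and -2.36. At E14.5, also outside the comparison, the medians were 0.57 and -1.76, so the genes that fell after birth were, at the median, also lower there than at E17.5 and E18.5, and the medians over all genes were -0.083 at E14.5 and -0.18 at P7. Gfra1 stood at 285 CPM at P3 and 63.8 at P7, and Mki67 at 313 and 224. Dnmt3l was at 20.3 and 2.23. These values share the fetal reference with the calls and carry no test.

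**Figure D5:**
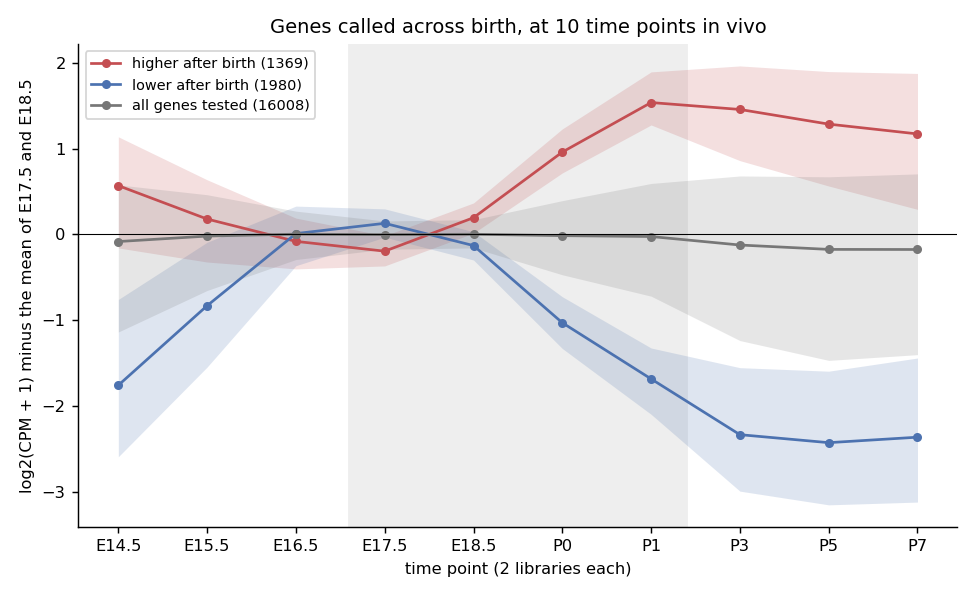
Median difference in log2(CPM + 1) from the mean of E17.5 and E18.5 (vertical axis) at 10 time points in vivo (horizontal axis, 2 libraries each) for genes that rose (red), fell (blue) and all genes tested (grey), with bands from the first to the third quartile and the 4 compared time points shaded. The red line peaks at P1 (1.54) and the blue line is lower at P3 (-2.33) than at P1 (-1.68).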

How the data were processed

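Read counts and RPM values are those the authors deposited for each library. Per the submitters' processing notes, HTSeq 0.9.1, Bowtie2 2.2.7, TopHat2 2.0.11 and cutadapt 1.9.1 were used, with the build GRCm38.p6. No label records their settings. The deposited RPM matched the count over nuclear reads within a relative 4.9e-06. The tests kept 16008 nuclear genes, those that reached 5 RPM in 2 or more of the 62 libraries. TMM scaling and edgeR 4.0.16 quasi-likelihood fits (robust, R 4.3.3) had a coefficient for every one of the 31 groups, with contrasts of mean log2 levels, and a time point at almost no reads can set a fold change. Replicate numbers are those of the titles. Counts were also simulated from real means, with 200 genes changed and no gene differing between time points of the same side. Across birth the test picked out 45.5% of 66 genes given an absolute log2 change of 1. For a change of 2 the share was 97% of 67 genes, and 0.0258% of 15506 unchanged genes were called. Because differences between time points of a side were left out, that last share cannot tell how many calls in the real libraries come from them.

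The members and lists were chosen with earlier results of these data known. Named genes were the 12 highest and 12 lowest fold changes across birth and the 5 and 5 of each step among called genes (at least 20 CPM on the higher side, no overlap of libraries, none with a numbered name only), 4 or fewer called genes from each list, and Ddx4, Dazl, Gfra1, Kit, Dnmt3l, Piwil4, Mki67 and Cdkn1b. Other list members, such as Etv5, Glis3, Utf1, Mcm5 and Spc25, were chosen after their values were seen, as were the 3 promoter motifs. Alternatives covered scaling, DESeq2 1.42.0, limma 3.58.1 on log2(RPM + pseudocount), filters, libraries in the fit, the replicate block, thinning and leaving out libraries or time points. Mitochondrial genes, spike-ins, transgene sequences and 10 genes with blank counts were left out of the tests. The 2 libraries of each time point differed by more than sampling noise (chi-squared divided by degrees of freedom, 1.53 to 3.17). A few genes that the rule would name are not reported here.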

Additional observations from a re-analysis of the deposited data

Results flagged for a closer look

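Signals in rows of the files that no comparison used came from sequences named for transgenes. The row for a BGH polyadenylation sequence held 646 reads over the 8 libraries, with 41 and 42 at E17.5, 77 and 91 at E18.5, 68 and 148 at P0 and 79 and 100 at P1. The row for an EF1a polyadenylation sequence held 922 reads, with 185 and 169 at E17.5, 127 and 153 at E18.5, 85 and 152 at P0 and 22 and 29 at P1. A row for an RBG polyadenylation sequence held 4 reads, all in P0 replicate 2. Each total is above the 3 reads that a count of 0 allows, and the labels do not say which construct a row stands for.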

How the results depend on the processing

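The count of genes higher across birth, 1369, became 892 with DESeq2, 905 with its size factors, 749 with a filter of 20 RPM, 910 with limma at a pseudocount of 5, 294 with time points as units, 741 without E17.5 and 653 without P1. The count lower, 1980, became 1144 with the filter, 494 with limma at a pseudocount of 5, 293 with time points as units and 984 without P1. Of the main calls, 563 higher and 788 lower genes were also called without P1. With the fit limited to the 8 libraries, the fetal step had 487 higher and 295 lower genes, birth itself 957 lower, P1 against P0 1356 lower and P0 alone 1448 lower. With library totals the fetal step had 583 higher and 46 lower genes. With limma at a pseudocount of 1 it had 537 and 79, and birth itself had 451 lower. The cause of these shifts was not tested. Leaving out 1 library gave 1040 to 1374 higher and 1687 to 2067 lower genes across birth, 98 to 113 and 63 to 93 in the fetal step, 149 to 199 and 76 to 85 at birth, and 426 to 702 and 451 to 746 from P0 to P1, where a lone library was assumed to vary like the other groups. No named gene changed sign with a call. With time points as units, 76 of 150 named results across birth no longer passed, and without P1 51. In the lists, higher counts with time points as units went from 19 to 12 for the GDNF and FGF response, 11 to 4 for replication, 7 to 2 for mitosis and 5 to 1 for cyclins. Lower counts went from 13 to 2 for ribosomal proteins and 7 to 2 for pluripotency. They went to 0 for the Sertoli, heat shock and imprinted lists, from 6, 3 and 4. Replicate numbers did not pair the libraries (correlations of same-numbered deviations from -0.0461 to 0.0599 over 7753 genes); the replicate block gave 1372 higher and 1971 lower genes, and 1411 and 2292 within the 8 libraries. Depth limits genes near 3 reads, such as Nanos2 before birth.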

Other observations

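Further lists were counted in the comparison across birth, where 8.55% of all genes rose, 12.4% fell and 20.9% were called. With P0 alone 4.93% of all genes were higher and 5.48% lower. Of 28 genes of the cell surface and of movement, 5 rose (3 without E17.5 replicate 2 or P1 replicate 2) and 3 fell (5 without P0 replicate 2 or P1 replicate 2), and with P0 alone 5 were higher and 3 lower. L1cam, a neural adhesion molecule, fell from 32.7 ± 6.2 to 10.9 ± 4.34 CPM (edgeR, log2 fold change -1.65, adjusted p = 4.7e-05). Mmp14, a membrane-bound matrix protease, lay at 15.3 to 34.8 CPM before birth, 12.04 to 17.9 at P0 and 1.52 to 3.50 at P1, and with P0 alone its log2 fold change of -0.75 was not called. Of 23 Nodal, BMP and Id genes 1 rose, Id4, and 3 fell (1 without P1 replicate 2 or with P0 alone), among them Inhba, the activin subunit (log2 fold change -3.30). Of 29 imprinted genes 1 rose, Mest (not without P0 replicate 2), and 4 fell (1 with P0 alone), among them Grb10 (-1.49, and -0.61 with P0 alone, not called). Of 17 interferon-induced genes 1 rose and 4 fell (3 with P0 alone). Of 34 chromatin modifiers 3 were called, a share below that of all genes: Suv39h1 rose, and Kdm1a and Hdac2 fell, though neither was called with P0 alone (-0.49 and -0.78). Of 16 clock genes 1 rose and 2 fell (4 without E17.5 replicate 1, and with P0 alone 3 were higher and none lower), of 14 glucocorticoid targets 2 rose and 1 fell (4 and 2 with P0 alone), of 28 autophagy and lysosome genes 4 rose (1 with P0 alone, and 2 without E17.5 replicate 2, P0 replicate 1 or P1 replicate 2), and of 22 Nrf2 targets 2 rose (with P0 alone 3 were higher and 1 lower). Of 18 Atf4 targets 1 rose and 2 fell (4 without P1 replicate 1, and with P0 alone 1 was lower and none higher).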
